A study of Mus musculus with 6 samples.

Results

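Kdm7a and Phf2 encode the closest relatives of the histone demethylase PHF8, and H3K9me3 peaks over both genes were compared between control neural stem cells and cells with PHF8 knocked down. They are 2 of the 21938 protein-coding genes that GENCODE M21 places on chromosomes 1 to 19, X and Y of the mouse genome build mm10 (GRCm38). Both genes were chosen by their H3K9me3 peaks in this same comparison: Kdm7a for peaks seen only in PHF8-depleted cells, and Phf2 for covered bases that differed between libraries. Their values are therefore given as descriptions, without tests.

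Chromatin immunoprecipitation followed by sequencing (ChIP-seq) located H3K9me3, the trimethylated form of lysine 9 on histone H3, in neural stem cells (NSCs) grown from the cerebral cortex of mouse embryos with the growth factors EGF and FGF. The cells were infected with lentivirus that carried either a scrambled control shRNA (shCTR) or an shRNA directed at PHF8 (shPHF8), and infected cells were selected with puromycin. Each condition had 2 ChIP libraries, which are used here, and 1 input, which is not. Both conditions carried a lentiviral vector. The labels do not say which shRNA against PHF8 was used, or whether the 2 libraries of a condition came from separate cultures.

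The authors deposited 1 list of broad peaks per ChIP library, with positions only, so the number of reads behind a peak is unknown here. The lists held 44318 to 55557 peaks, whose bases covered 5.75 and 5.86% of the genome in the shCTR pair of libraries, and 8.04 and 7.23% in the shPHF8 pair, each pair given in the order replicate 1, replicate 2 here and below. The ratio of the mean covered share, shPHF8 to shCTR, was 1.32 over the genome, 1.28 on chromosome 6, which carries Kdm7a, and 1.39 on chromosome 13, which carries Phf2. The library shPHF8 replicate 1 stood apart, with the fewest peaks and the widest, at a median width of 4200 bp against 2400 to 2800 bp in the others, and differences are also given without it. A gene or window is called higher when each shPHF8 library exceeded each shCTR library in covered bases, lower in the opposite case, and overlapping otherwise. With 2 libraries against 2, the smallest p of an exact two-sided permutation test is 0.333, so no test of a single value can reach 0.05.

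PHF8, PHF2 and KDM7A make up the KDM7 group of Jumonji (JmjC) demethylases, which use iron and 2-oxoglutarate to remove methyl groups from histone lysines. A PHD finger near the N terminus binds H3K4me3, a mark of active promoters, and the JmjC domain acts on mono- and dimethylated lysines such as H3K9me2, with KDM7A also acting on H3K27me2. H3K9me3 itself is a mark of constitutive heterochromatin and silenced repeats, is written by SUV39H and SETDB1 enzymes, and is removed mainly by the KDM4 demethylases.

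Kdm7a (ENSMUSG00000042599.8) lies at chr6:39136623-39206789 on the minus strand and is 70167 bp long. Phf2 (ENSMUSG00000038025.8) lies at chr13:48801750-48871119, also on the minus strand, and is 69370 bp long. Peaks of the 4 libraries that overlapped or touched were joined into regions, 14 over each gene and the 100 kb on each side, and numbered along the chromosome. The stretches below are the middle 300 bases of the part shared by the libraries that hold the peak, for the 4 regions on which the description turns. They are written 5' to 3' on the plus strand of GRCm38.p6, RefSeq's copy of the same build, with repeats soft-masked by RefSeq in lower case and all other bases in capitals. None overlaps an annotated exon of Kdm7a, Phf2 or the genes around them. The first was found in both shPHF8 libraries and neither shCTR library (Kdm7a region 4, chr6:39134651-39134950), the second in both shCTR libraries and 1 shPHF8 library (Phf2 region 10, intron 1, chr13:48861351-48861650), the third in both shCTR libraries and neither shPHF8 library (Phf2 region 13, inside Fam120a, chr13:48954851-48955150), and the last in all 4 (Phf2 region 5, past the gene's end, chr13:48790651-48790950).
Kdm7a region 4: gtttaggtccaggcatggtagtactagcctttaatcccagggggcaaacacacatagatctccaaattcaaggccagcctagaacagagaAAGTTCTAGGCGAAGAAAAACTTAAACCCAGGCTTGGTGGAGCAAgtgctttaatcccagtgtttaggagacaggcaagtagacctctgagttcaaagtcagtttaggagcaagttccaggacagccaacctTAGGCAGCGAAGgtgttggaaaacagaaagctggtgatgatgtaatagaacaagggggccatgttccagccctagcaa
Phf2 region 10: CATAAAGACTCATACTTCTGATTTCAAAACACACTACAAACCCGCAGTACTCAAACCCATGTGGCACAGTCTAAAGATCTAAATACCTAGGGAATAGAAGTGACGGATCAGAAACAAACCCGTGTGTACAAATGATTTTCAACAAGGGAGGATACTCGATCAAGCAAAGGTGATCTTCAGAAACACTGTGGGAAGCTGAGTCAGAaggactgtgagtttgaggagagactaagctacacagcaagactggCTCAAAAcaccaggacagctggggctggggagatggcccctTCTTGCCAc
Phf2 region 13: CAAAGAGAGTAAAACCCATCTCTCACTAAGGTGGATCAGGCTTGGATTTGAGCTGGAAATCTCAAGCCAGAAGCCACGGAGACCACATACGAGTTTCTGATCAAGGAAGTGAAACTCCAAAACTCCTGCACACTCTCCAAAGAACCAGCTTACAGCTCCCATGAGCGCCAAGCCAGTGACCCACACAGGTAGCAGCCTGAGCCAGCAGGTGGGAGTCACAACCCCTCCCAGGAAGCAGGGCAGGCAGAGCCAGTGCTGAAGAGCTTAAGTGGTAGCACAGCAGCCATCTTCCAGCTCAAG
Phf2 region 5: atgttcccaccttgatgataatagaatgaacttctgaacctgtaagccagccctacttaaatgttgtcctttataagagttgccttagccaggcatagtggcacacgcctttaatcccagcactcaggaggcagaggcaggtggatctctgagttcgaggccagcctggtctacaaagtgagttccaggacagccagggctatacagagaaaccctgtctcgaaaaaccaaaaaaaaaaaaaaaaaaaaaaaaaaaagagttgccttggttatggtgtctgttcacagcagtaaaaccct

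Repeat bases made up 81% of the printed stretch of Kdm7a region 4, 26.7% of that of Phf2 region 10, none of that of Phf2 region 13, and 100% of that of Phf2 region 5. Of the 50-base words that start in the stretch of Phf2 region 5, 46% also occurred elsewhere in the genome, against 3.67% for Kdm7a region 4 and none for the other two. Over the whole regions, repeats covered 59.8% of Kdm7a region 4, 58.5% of Phf2 region 5, 44.9% of Phf2 region 13 and 30.3% of Phf2 region 10. The median over all peaks of a library was 26.9 to 28.4%, and repeats made up 36.4% of the genome.

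The peaks that set Kdm7a apart were not in the gene but past its 3' end. No library had a peak over any of the 21 exons, the 20 introns or the 3 kb on each side of the start site. In the 3 kb after the gene's end, 0 bases were covered in both shCTR libraries, 2778 in shPHF8 replicate 1 and 2000 in shPHF8 replicate 2. The peak of shPHF8 replicate 1 (chr6:39133601-39136400) came to within 223 bp of the end of the 3' UTR, and that of shPHF8 replicate 2 (chr6:39133801-39135800) to within 823 bp. The second peak lay wholly inside the first, so 2000 bases were covered in both shPHF8 libraries and in neither shCTR library. Of the 4480 protein-coding genes with a peak in that 3 kb window in at least 1 library, 6.03% had one in both shPHF8 libraries and neither shCTR library. Over the gene and 3 kb on each side, where 11979 genes had a peak, that share was 2.51%. Without shPHF8 replicate 1 the difference of means over that window was 2000 bases in place of 2389, and it was 0 when only the widest peaks of each library were kept to the same covered length, since neither peak was wide enough.

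The stretch past the 3' end of Kdm7a belongs to a long noncoding RNA gene on the opposite strand, 4930599N23Rik (chr6:39118473-39148312), which overlaps the last exons of Kdm7a tail to tail. Region 4 lay in an intron of that gene and touched none of its 4 exons. The next region along, Kdm7a region 3 (chr6:39126601-39132800), also lies in its introns and had a peak in every library, of 1400 and 2800 bp in the shCTR pair, against 6200 and 2000 bp in the shPHF8 pair. In shPHF8 replicate 1 only 800 bp separated the peaks of regions 3 and 4, which is the smallest gap between neighbouring peaks in any of the 4 libraries, whereas 5200 bp separated them in shPHF8 replicate 2. In the shCTR libraries the nearest peak stood 5000 and 3600 bp from region 4. Over the whole of 4930599N23Rik, 2200 and 5000 bases were covered in the shCTR pair, against 11400 and 5800 in the shPHF8 pair. These values were not scaled to the same total of covered bases, and no share over other noncoding genes was counted.

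**Figure D1:**
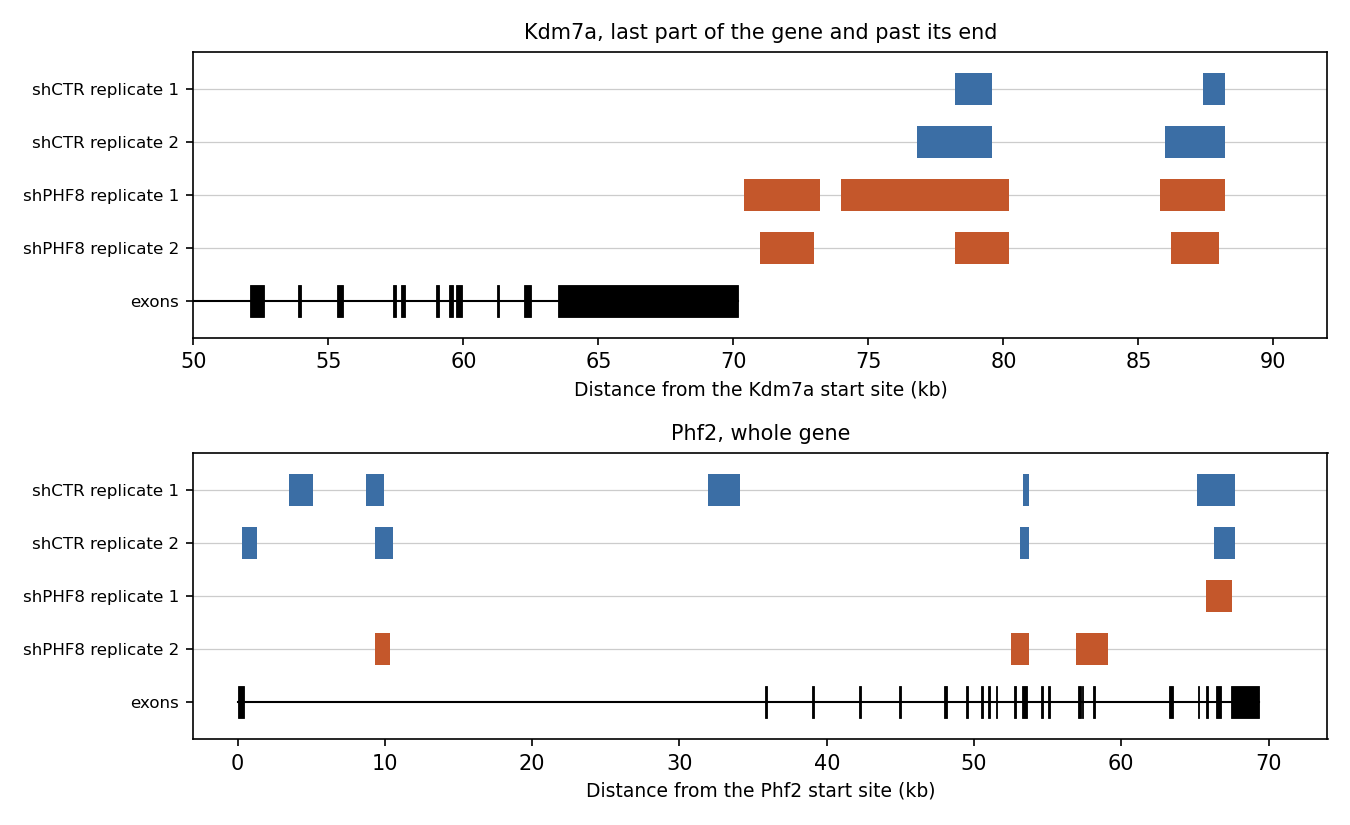
Peaks (blue, shCTR; orange, shPHF8) of each library over the last part of Kdm7a and the stretch past its end (top), and over the whole of Phf2 (bottom), with exons in black, by distance from the start site in kb. The peaks found only in shPHF8 libraries begin 223 and 823 bp past the last exon of Kdm7a, and no base inside Phf2 was covered in all 4 libraries.

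The start of Kdm7a stood in a long stretch with no peak. Counted from the peak before to the peak after the start site, that stretch was 88400 and 107400 bp long in the shCTR pair, against 102400 and 81000 bp in the shPHF8 pair. It overlapped between the conditions, although its far end came nearer in shPHF8: the first peak after the start site was 78189 and 76789 bp away in the shCTR libraries and 70389 and 70989 bp away in the shPHF8 libraries. A body free of peaks was not rare at this length, since 25.0% of the 5175 protein-coding genes of 0.5 to 2 times the length of Kdm7a had no peak in any library. The promoter of Kdm7a, a window of 300 bases around the start site in RefSeq, held 65 CpG dinucleotides and that of Phf2 held 63, where the median of 32851 promoters of that length was 7.

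On its upstream side Kdm7a was flanked by peaks in all 4 libraries. In the 100 kb before the start, 15800 and 16600 bases were covered in the shCTR pair, against 21589 and 24400 in the shPHF8 pair, a ratio of means of 1.42. In the 100 kb after the end the values were 3400, 6200, 12600 and 7200 in the same order, a ratio of 2.06. Both sides were thus higher in shPHF8, as 39.3% of genes with a peak before the start and 39.1% of those with a peak after the end were. Both sides together held 19200, 22800, 34189 and 31600 covered bases, a ratio of 1.57, and 47.6% of the 20305 genes with a peak in these flanks were higher in the same sense. Without the 3 kb next to the gene, which hold region 4, the ratio was 1.45, and without shPHF8 replicate 1 the difference was 10600 bases. Scaled to the same total of covered bases in each library, either side alone overlapped between the conditions, and both together had 22427 and 26158 bases in shCTR, against 28573 and 29376 in the shPHF8 pair. They remained apart with a smaller difference, of 4682 in place of 11895 bases. Without the 3 kb that hold region 4, the scaled values nearly met, with 22427 and 26158 bases in shCTR against 26251 and 27517 in shPHF8. The share of genes with scaled flanks apart was not counted. When only the widest peaks were kept, until every library covered the same length, the difference over both flanks was -1306 bases.

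**Figure D2:**
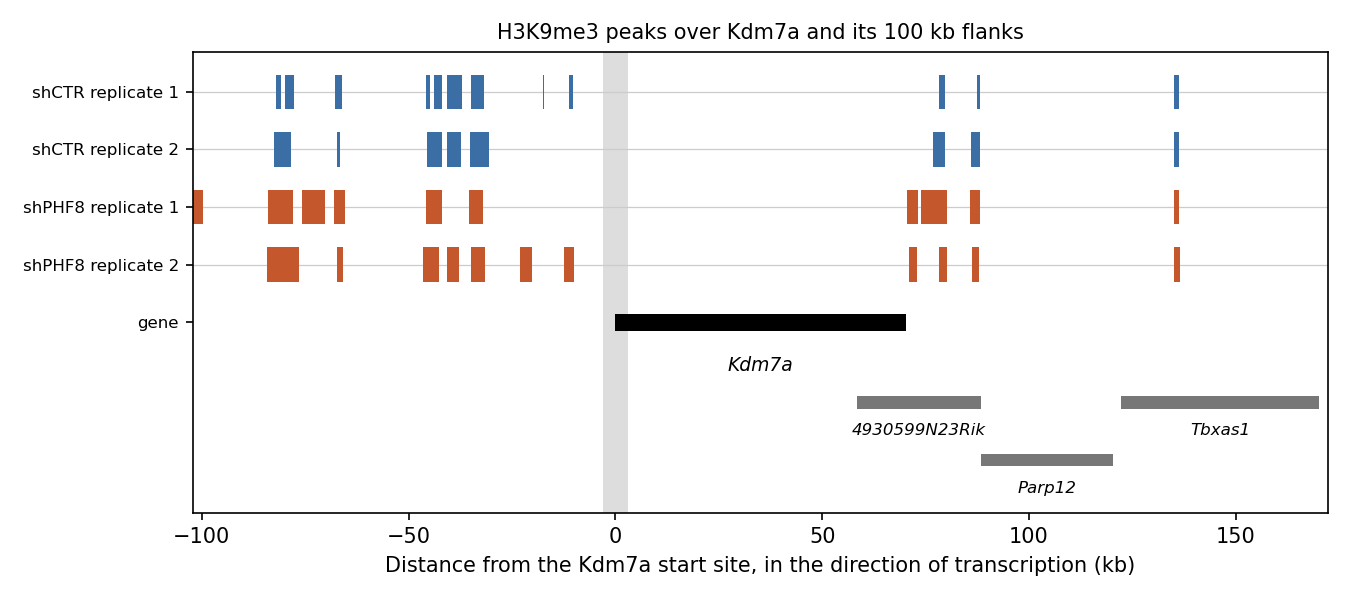
Peaks of each library (blue, shCTR; orange, shPHF8) over Kdm7a and 100 kb on each side, by distance from the start site in kb, with the gene in black, neighbouring genes in grey and the 3 kb on each side of the start site shaded. The gene body is free of peaks in all 4 libraries, and the peaks found only in the 2 shPHF8 libraries lie just past its end.

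Single regions around Kdm7a differed in direction. Of the 14 regions around the gene, 7 were present in all 4 libraries, 1 in 3, 2 in 2 and 4 in 1. Region 13 (chr6:39283201-39291000) was the widest of those in all 4, with 3200 and 4200 bp in the shCTR pair, against 6000 and 7800 bp in the shPHF8 pair, so the conditions did not overlap. Region 9 (chr6:39243801-39247600) went the other way, with 3600 and 3400 bp in shCTR against 0 and 2800 bp in shPHF8. In all, 3 regions were higher in shPHF8, 1 was lower and 10 overlapped, before any scaling. Joined regions were not counted over the whole genome, so no share stands beside these numbers. Region 12, of 5600 bp, and region 14, of 8400 bp and mostly beyond the 100 kb, were called in shPHF8 replicate 1 alone. Over both flanks, 10389 bases were covered only in shPHF8 replicate 1 and 6600 only in shPHF8 replicate 2, against 800 and 1000 in the shCTR libraries, while 4200 bases were covered in both shPHF8 libraries and neither shCTR library.

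Phf2 differed from Kdm7a in that its peaks lay inside the gene. Shares of 11.5 and 6.05% of the gene were covered in the shCTR pair, and of 2.59 and 6.34% in the shPHF8 pair, which is 8000, 4200, 1800 and 4400 bases. The mean of the shPHF8 libraries was 3100 bases, 0.508 times the shCTR mean of 6100, but shPHF8 replicate 2 lay above shCTR replicate 2, so the conditions overlapped. The 3 kb on each side of the gene held no peak in any library. Scaled to the same total of covered bases, the 4 values were 9344, 4819, 1504 and 4090 bases, which no longer overlapped, and with that scaling 28.9% of genes with a peak were lower in shPHF8. The unscaled difference of -3000 bases turned on single libraries: leaving out a library of the shCTR pair made it -1100 (replicate 1 left out) or -4900 (replicate 2), and leaving out one of the shPHF8 pair made it -1700 or -4300. A difference below that of Phf2 was seen in 5.60% of the 11979 genes with a peak, whose median difference was 428.5 bases. Phf2 was chosen on this contrast, so its rank describes that choice and is no support. The rank is unscaled, and the genes were not matched for length.

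The peaks inside Phf2 were narrow and seldom in the same place. There were 5 and 4 in the shCTR pair, against 1 and 3 in the shPHF8 pair, which joined into 7 regions, none of them present in all 4 libraries. Of these regions, 3 were present in 3 libraries, each time in both shCTR libraries and 1 shPHF8 library, and 4 were present in 1 library. Of 12600 bases covered in any library, 9000 were covered in 1 library, 1400 in 2, 2200 in 3 and none in 4. The 2 shPHF8 libraries had no covered base in common inside the gene, out of 6200 covered in either, and the 2 shCTR libraries had 2400 in common out of 9800 (24.5%). By contrast, in the 100 kb after Phf2 the 2 shPHF8 libraries shared 14400 of 25200 bases (57.1%).

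Intron 1, the longest of Phf2, held 3 of the 7 regions whole and part of region 12. Region 10 (chr13:48860601-48862400) had peaks of 1200 bp in both shCTR libraries, against 0 and 1000 bp in the shPHF8 pair, and it was the only region inside the gene that was lower in shPHF8. For shPHF8 replicate 2 that call rests on a single 200 bp window, and no share of regions over the genome stands beside it. Regions 9 and 11, of 2200 and 1600 bp, were called in shCTR replicate 1 alone. Region 12 (chr13:48869801-48870800), called in shCTR replicate 2 alone, began 319 bp after the start site and ran 1000 bp over exon 1 and intron 1. It was the single peak within 3 kb of the start site of Phf2 in any library, and lay in CpG-rich sequence, with 112 CpG dinucleotides in 1000 bases and a GC content of 71.8%, where the median over all peaks was 44.9 to 45.4%.

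The other peaks inside Phf2 lay over later exons. Region 6 (chr13:48803401-48806000), over exons 19 to 22, which encode the C terminus and hold the 3' UTR, had 2600 and 1400 bp in the shCTR pair, 1800 bp in shPHF8 replicate 1 and none in shPHF8 replicate 2. Region 8 (chr13:48817401-48818600), over exons 11 and 12, had 400 and 600 bp in shCTR and 0 and 1200 bp in shPHF8. Region 7 (chr13:48812001-48814200), over exons 15 to 17, was called in shPHF8 replicate 2 alone with 2200 bp. Exons 2 to 10 had no peak in any library. Kdm7a has exons of the same length as Phf2 at 8 of its first 10 positions. None of the 21 exons of Kdm7a had a peak, so these do not stand out among them.

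Counted over all exons, Phf2 was lower in shPHF8: 1176 and 1168 exonic bases were covered in the shCTR pair, against 585 and 861 in the shPHF8 pair. Of the 8183 genes with a peak over an exon, 10.6% were lower in the same sense. Most of these bases were coding, with 975, 932, 584 and 861 in the same order. Over introns the values were 6824 and 3032 in shCTR against 1215 and 3539 in shPHF8, which overlapped unless scaled to the same total.

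**Figure D3:**
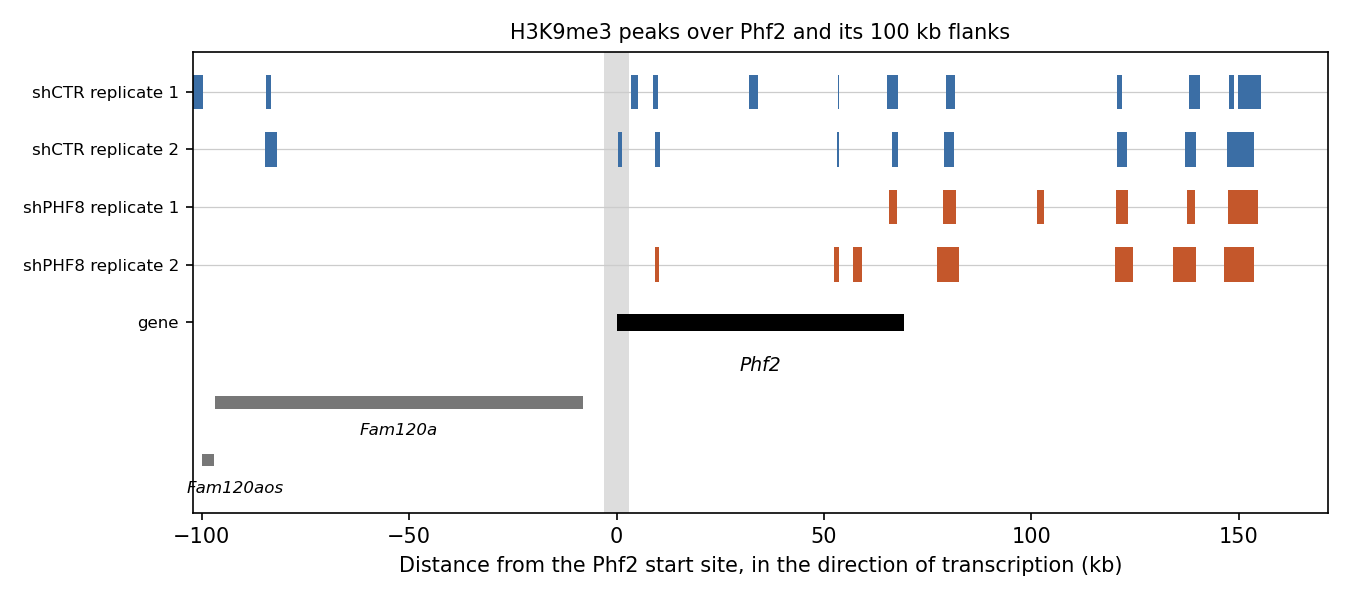
Peaks of each library (blue, shCTR; orange, shPHF8) over Phf2 and 100 kb on each side, by distance from the start site in kb, with the gene in black, neighbouring genes in grey and the 3 kb on each side of the start site shaded. Peaks before the start are seen in the 2 shCTR libraries and in neither shPHF8 library, and 4 of the 5 regions past the end are seen in all 4.

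The sides of Phf2 differed from each other. In the 100 kb before the start, 1519 and 2800 bases were covered in the shCTR pair and none in either shPHF8 library, a pattern that 1.8% of the 18734 genes with a peak there had. The bases shared by the shCTR libraries were those of region 13 (chr13:48953001-48955800), 81882 bp or more from the start site and within an intron of Fam120a, a neighbouring gene for an RNA-binding protein. After the end of the gene the order was the opposite, with 13000 and 14200 bases in the shCTR pair, against 17200 and 22400 in the shPHF8 pair, a ratio of 1.46, although scaled to the same total the conditions overlapped, with 15185 and 16291 against 14375 and 20824 bases. Regions 1, 3 and 5 there were each higher in shPHF8 before scaling, and region 5 (chr13:48788601-48793800), 7950 bp past the gene's end, had 2200, 2400, 3200 and 5200 bp. Of the 26800 bases covered there in any library, 9800 were covered in all 4.

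Both flanks of Phf2 together held 14519, 17000, 17200 and 22400 covered bases, so that shPHF8 replicate 1 exceeded shCTR replicate 2 by a single 200 bp window, and the ratio was 1.26. The difference of 4041 bases was 6641 without shPHF8 replicate 1 and 1441 without shPHF8 replicate 2. Scaled to the same total of covered bases, the difference was -632 bases, and keeping only the widest peaks to the same covered length made it -860 bases. Over the gene and both flanks the conditions overlapped, with 22519 and 21200 bases in shCTR against 19000 and 26800 in shPHF8. The stretch without a peak around the start site was 179800 and 124400 bp long in the shPHF8 pair, and 86800 and 82200 bp in the shCTR pair. Such stretches were not measured over all genes, so the share with the same order is unknown.

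**Figure D4:**
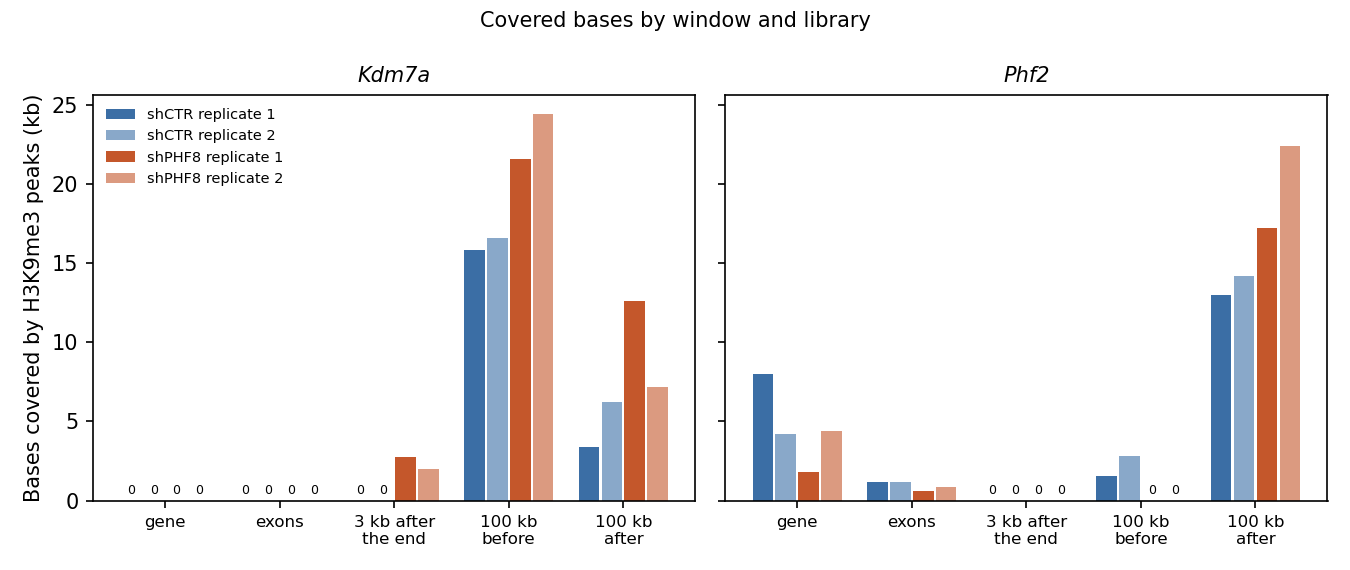
Bases covered by H3K9me3 peaks (kb) in windows of Kdm7a (left) and Phf2 (right), 1 bar per library, with 0 written where no base was covered. Before any scaling, the shPHF8 libraries stand above the shCTR libraries in the 100 kb past the end of both genes, and below them before the start of Phf2.

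The sequence under the peaks differed between the genes, as did the sequence under no peak. At Kdm7a and its flanks, repeats made up 38.6% of the bases under a peak of any library and 29.6% of those under none, and at Phf2 26.5 and 20.4%. Inside the Phf2 gene, where 15.9% of bases are repeats, the covered bases held 16.1%. The GC content of covered bases was 46.0% at Kdm7a and 50.0% at Phf2, and 53.0% inside Phf2. Bases under no peak had 43.4% at Kdm7a and 47.3% at Phf2, and the whole Phf2 gene had 50.9%.

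The gene for PHF8 itself had no peak. Phf8 (chrX:151520672-151633859, plus strand) had 0 covered bases over the gene and over 100 kb on each side in all 4 libraries, and the nearest peak before its start was 110472 to 978072 bp away. Peaks covered 0.201 to 0.334% of chromosome X. Peak positions hold no RNA or protein level, so the knockdown could not be checked in these files. Nor could the identity of the cells. Of 8 genes that mark NSCs, the transcription factor gene Pax6 had a peak near its start site in all 4 libraries, with 4300 and 5300 bases in the shCTR pair, against 5500 and 5700 in the shPHF8 pair. Fabp7 had 2401, 1201, 801 and 0 there in the same order, Hes5 had 1200 in both shCTR libraries only, Vim and Slc1a3 had a peak there in 1 library each, and Sox2, Nes and Hes1 had none.

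Of genes 0.5 to 2 times as long as each of the 2, 5 were named whose covered share over the gene and 3 kb on each side was nearest to it in the 4 libraries. Their likeness to Kdm7a or Phf2 in the pattern over libraries follows largely from that choice and is no result. For Kdm7a these were Ppargc1a, Gfral, Sirpb1b, Heatr5b and Slc1a1, at distances of 0.312 to 0.956 percentage points, all of them with peaks in both shPHF8 libraries and neither shCTR library. Ppargc1a, which encodes a coactivator of mitochondrial genes, had 4200 and 2800 bases in the shPHF8 pair, and Slc1a1, a neuronal glutamate transporter gene, had 2352 and 2552. For Phf2 they were Osbpl11, Pstpip2, A430078G23Rik, Cttnbp2nl and Aldh1l2, at distances of 0.708 to 2.67 percentage points. Osbpl11, a gene for a lipid transfer protein, had 6512 and 3400 bases in shCTR against 1400 and 4000 in shPHF8, and like Phf2 it overlapped between the conditions, as did A430078G23Rik and Aldh1l2. Pstpip2 and Cttnbp2nl were lower in shPHF8, with 9000, 6200, 2800 and 5800 bases for Pstpip2 and 6000, 2600, 1800 and 2400 for Cttnbp2nl.

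Other enzymes that add or remove methyl groups on histone lysines were set beside both genes, from a list of 33 that includes Phf8. Over the gene and 3 kb on each side, 19 had a peak in at least 1 library, of which 5 were higher in shPHF8 and 4 were lower, where 27.4% and 12.8% of all genes with a peak were. Scaled to the same total of covered bases, 2 of the 19 were higher and 5 lower, and the shares over all genes were 14.7 and 28.9%. The median difference over the 19 was -500 bases, against 428.5 over all genes with a peak. Among the KDM4 enzymes, which remove H3K9me3, Kdm4a had 4200 and 4800 bases in the shCTR pair, against 7200 and 5800 in the shPHF8 pair, and Kdm4d had 5200, 3000, 8800 and 7600. Kdm4c, of the same family, had 3800 bases in shCTR replicate 1 and none in the others, and Kdm4b had no peak. Riox2, a ribosomal oxygenase gene, had 2000 and 1800 against 3026 and 2400. Once scaled, Kdm4d remained higher, while Kdm4a and Riox2 overlapped between the conditions. Kdm5d, an H3K4 demethylase gene on chromosome Y, had peaks in shPHF8 only, of 6986 and 3786 bases, and shared that pattern with Kdm7a alone among these enzymes. The study's methods do not give the sex of the embryos, and the covered share of chromosome Y was not counted. Whether the shCTR cells carried that chromosome is therefore unknown here.

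The H3K9 demethylases Kdm3a and Jmjd1c were lower in shPHF8. Jmjd1c had the most covered bases of all listed enzymes, 31076 and 34476 in shCTR against 27876 and 20676 in shPHF8, and Kdm3a had 2190 in both shCTR libraries against 1990 and 590. Among the H3K9 methyltransferases, Setdb1, which writes H3K9me3 at repeats, had 600 and 1200 bases in shCTR against 3402 and 1400 in shPHF8, which overlapped once scaled. Ehmt1 and Ehmt2, whose products GLP and G9a write H3K9me2, had peaks in both shCTR libraries and neither shPHF8 library: Ehmt1 had 4200 and 4600 bases and Ehmt2 1532 and 1000. Kdm2a, an H3K36 demethylase gene, had 1000 bases in shCTR replicate 1 alone, and Kmt5a, an H4K20 methyltransferase gene, had 1400 in shCTR replicate 2 alone. Of all genes with a peak, 4.01% had peaks in both shCTR libraries and neither shPHF8 library.

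**Figure D5:**
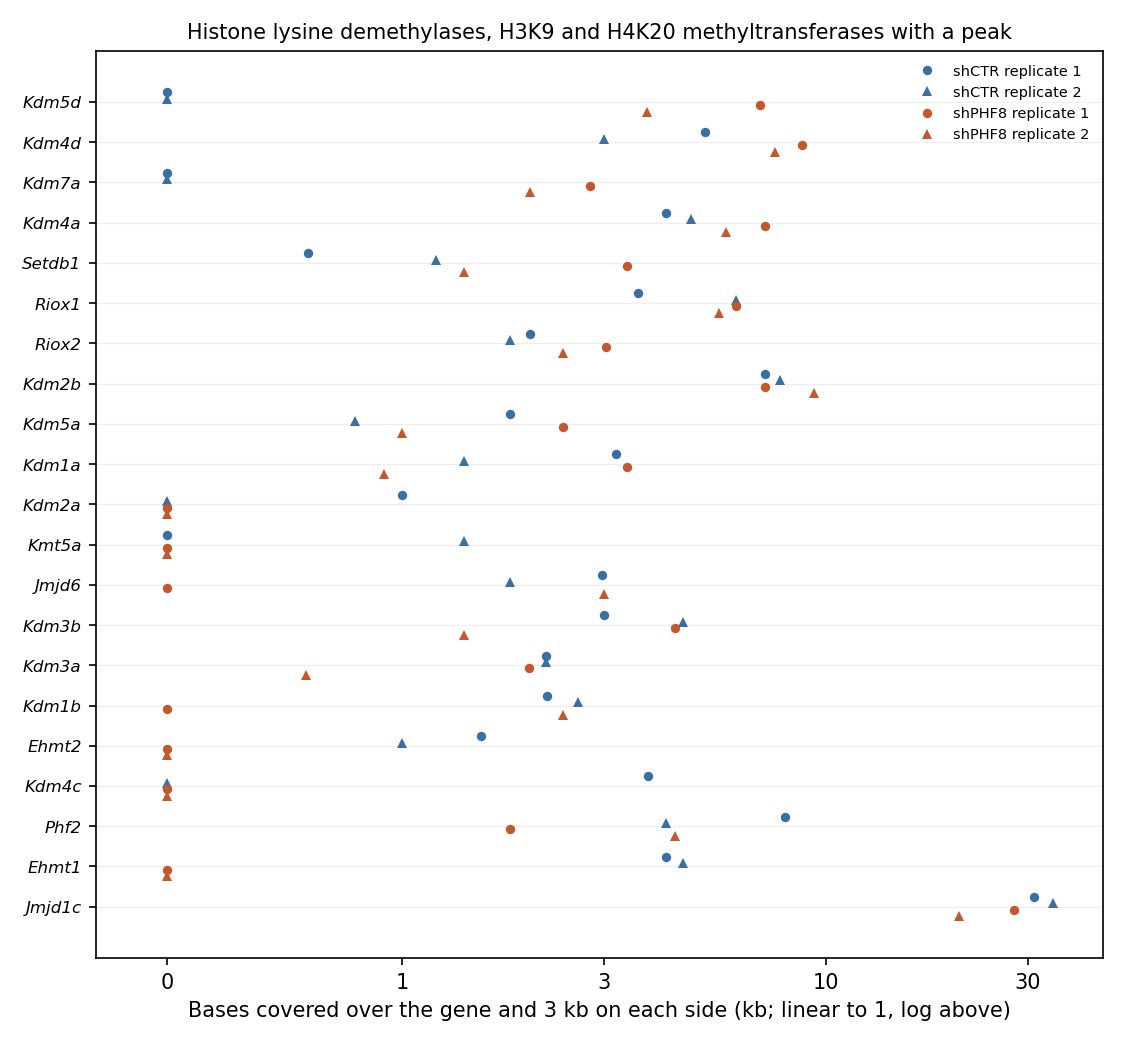
Bases covered over the gene and 3 kb on each side (kb, linear up to 1 and logarithmic above) for the 21 listed enzymes with a peak, Kdm7a and Phf2 among them, with circles for replicate 1 and triangles for replicate 2 (blue, shCTR; orange, shPHF8), ordered by the difference of means. Kdm5d, which is on chromosome Y, and Kdm7a have peaks in both shPHF8 libraries and neither shCTR library, Ehmt1 and Ehmt2 the reverse, and the values of Phf2 overlap between conditions.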

How the data were processed

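H3K9me3 ChIP-seq peaks of 4 libraries were used, 2 shCTR and 2 shPHF8, grouped by their titles, leaving out the 2 inputs (not used here). The authors deposited peak positions only (unit: other), 1 list per library. By the study's methods, reads were aligned to mm10 with SOAPaligner/SOAP2 and broad peaks were called with SICER2, whereas the submitters' processing notes name Bowtie2 2.3.5.1, SAMtools 1.9 and deepTools. Window, gap, false discovery rate and use of the input are not given in the sources used here, and methods and labels differ in the cell number used. A called peak depends on depth and threshold, which the lists do not show, and a change of height within a peak is not seen. The study's appendix gives mapped reads per library, which were fewest for shPHF8 replicate 2 and similar among the others.

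Starts were taken as 0-based and ends as inclusive, since all widths are then multiples of 200 bp, and positions are printed 1-based. Peaks on the mitochondrial genome, 2 per library, were left out. Covered bases were counted per library over genes of GENCODE M21 and their flanks. Bases, repeats and 50-base words were read from GRCm38.p6, and promoters from RefSeq's table. Python 3.11.15, numpy 2.4.6, numba 0.67.0, matplotlib 3.10.9 and bedtools 2.31.1 were used. Counting was tested on simulated peaks against bedtools.

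Named were both genes, Phf8, listed enzymes and NSC markers that were higher, lower or had peaks in 1 condition only, genes within 100 kb, and the 5 genes nearest in covered share. Both genes, the lists and the rules were chosen with earlier results of these data known. No exact permutation test can reach 0.05 with 2 libraries against 2, so none was run. Alternatives were each library left out, scaling to the same total, keeping the widest peaks to the same covered length, peaks of at least 2000 bp, peaks within 5 kb merged, other flanks, a gap of 1000 bases and the replicate number as a block. Flanks without the nearest 3 kb and crossed replicate numbers were added after seeing the data.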

Additional observations from a re-analysis of the deposited data

How the results depend on the processing

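The difference in covered bases, shPHF8 minus shCTR, over Kdm7a with 3 kb on each side was 2389 bases, and 2000 to 2778 with 1 library left out. It was 0 for the gene without flanks and 4378 with 10 kb on each side. It was also 0 when the widest peaks were kept to the same covered length, which left no peak under 4000 bp in shPHF8 replicate 1 or 2600 bp in replicate 2. For Phf2 (-3000 bases) it was -4900 to -1100 with 1 library left out and negative under the 7 others. Among these, the replicate number as a block leaves a difference of means unchanged by construction. For the Kdm7a flanks (11895 bases) it was 10095 to 13695 with 1 library left out, 4682 scaled to the same total, 15295 with peaks of at least 2000 bp, 5000 with 50 kb flanks, 15600 with 200 kb flanks and 9506 without the nearest 3 kb. It was -1306 with the widest peaks. For the Phf2 flanks (4041 bases) it was 1441 to 6641 with 1 library left out and 15100 with 200 kb flanks. It was -632 scaled to the same total and -860 with the widest peaks. The cause was not tested.

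Of 11979 genes, 3281 were higher and 1535 lower in shPHF8. With 1 library left out there were 4310 to 5482 and 2483 to 3125, where fewer libraries had to be apart. There were 1765 and 3466 scaled to the same total, 1487 and 3433 with the widest peaks, and 2154 and 972 with a gap of 1000 bases. With peaks of at least 2000 bp, 872 were lower. With the replicate number as a block, 3982 were higher and 1962 lower, and with crossed numbers 4020 and 2010. The differences of both genes, 2389 and -3000 bases and 11895 and 4041 in the flanks, cannot change under the block. The mean of paired differences equals the difference of means here, so for them the block is no check. Same-numbered libraries had a correlation of deviations of -0.101, and the labels tie the numbers to no shared culture.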

Other observations

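Of the 2 protein-coding neighbours of Kdm7a, Tbxas1 had peaks over its body. Tbxas1, which encodes thromboxane synthase, lies past the end of Kdm7a and had 9400 and 8600 covered bases in the shCTR pair, against 15400 and 9400 in the shPHF8 pair, so that shPHF8 replicate 2 equalled shCTR replicate 1. Parp12, a gene for an ADP-ribosyltransferase, had no peak over its body in any library. Before Phf2, Fam120a had 1200 and 2800 covered bases in the shCTR pair and none in either shPHF8 library.

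Among the NSC markers, Slc1a3, a glial glutamate transporter gene, had 13400 and 23800 bases covered over the gene and 3 kb on each side in the shCTR pair, against 10400 and 9564 in the shPHF8 pair. Nes had 3800 in both shCTR libraries, against 2600 and 2800 in the shPHF8 pair. Fabp7, a fatty acid binding protein gene of radial glia, had 5970 and 4770 against 4370 and 2650. Hes5, a Notch target gene, had 1200 in both shCTR libraries and none in shPHF8. Pax6 went the other way, with 16200 and 16400 against 20000 and 21000, but overlapped once scaled to the same total of covered bases. Vim, an intermediate filament gene, had 1600 in shCTR replicate 2 alone, and Sox2 and Hes1 had none. Of the 6 markers with a peak, 4 were lower and 1 was higher in shPHF8, where 12.8% and 27.4% of all genes with a peak were. Scaled to the same total, 4 were lower and none higher, beside 28.9 and 14.7% of all genes.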
